A study of Homo sapiens with 12 samples.

Results

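The comparison was of MCF10A cells, an established, non-tumorigenic human mammary epithelial line, that stably expressed H-RasV12 from a retrovirus with MCF10A cells that carried the empty pBabepuro vector. Both groups had intact WT-p53, grew untreated in a DME/F-12 medium that contained horse serum and other supplements, and were sequenced as 3 libraries each, 6 of the 12 libraries of the series. The other 6 libraries were of MCF10A cells in which p53 had been deleted by targeting exon 2 and which carried the same constructs. Per the series' design text, the vector line of each pair was made at the same time as its H-Ras line, so 1 H-Ras line was set against 1 vector line, and anything else that differed between those lines cannot be told apart from H-Ras. Whether the lines were clones or pools was not given in the sources used here, nor whether the replicates were separate cultures. The p-values therefore rest on the spread among libraries, and that spread may be technical. The genes described were those with a mean of at least 10 normalized counts (read counts divided by a size factor of their library) in either group, 12715 of the 62082 genes in the table. Of these, 11741 reached 10 in both groups, 499 in the vector group only and 475 in the H-Ras group only. Close to the limit, 145 genes had their higher mean between 10 and 11, and 145 genes just outside had it between 9 and 10. The log2 ratio given for each gene is log2((H-Ras + 1)/(vector + 1)) from the group means.

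H-Ras is a small GTPase that passes signals from receptor tyrosine kinases to the RAF, MEK and ERK kinases and to phosphoinositide 3-kinase, and the V12 substitution keeps it in its active, GTP-bound form. ERK signalling turns on its own inhibitors, among them DUSP phosphatases and Sprouty proteins, and drives AP-1 and ETS transcription factors. In breast epithelium, active RAS is known to weaken cell junctions and to favour an epithelial-mesenchymal transition, in which repressors of the ZEB and SNAI families replace an epithelial programme of cadherin-1, keratins and tight junctions with a programme of vimentin, cadherin-2 and secreted matrix.

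The 6 libraries held an estimated 7846958 to 9836119 reads. Values per library were solved from the deposited group means. These were read as means of whole reads over size factors, which the headers do not state. For abundant genes the search was limited to library values of 0.2 to 2.5, or 0.5 to 1.6, times the group mean. The narrower limits settled several solutions for 1 vector and 13 H-Ras group means, which bounds the spread there. Within these limits 12698 of the 12715 genes had a unique solution. The 17 others, all very abundant, are given as group means only. Within each group the libraries are named A to C from the largest size factor to the smallest, and the labels' replicate numbers could not be matched to them. In each group 1 library differed from the rest, vector A and H-Ras C. Of 9092 genes with a group mean of at least 100, 267 of vector A's and 554 of H-Ras C's values lay more than 2-fold from the mean of the group's other libraries, against 18 to 92 in each of the remaining libraries. Counts of genes in lists are therefore also given with both left out.

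Across the 12698 genes with library values, limma called 3315 (26.1%) at an adjusted p under 0.05 (Benjamini-Hochberg), 1675 higher with H-Ras (13.2%) and 1640 lower (12.9%). In what follows "rose" and "fell" mean that a gene passed this test, two-sided. A value after ± is the standard error from limma. The median log2 ratio over the 12715 genes was -0.02, with quartiles at -0.35 and 0.32, and 10734 genes lay within 1 of 0. A log2 ratio of at least 1 was seen for 973 genes (7.65%) and of at most -1 for 1008 (7.93%). Large falls were more numerous than large rises: 256 genes (2.01%) were at -3 or below and 161 (1.27%) at 3 or above, and 70 (0.551%) were at -5 or below against 26 (0.204%) at 5 or above. No read was found in the 3 H-Ras libraries for 36 of the genes and none in the 3 vector libraries for 16. All 3 H-Ras libraries lay above all 3 vector libraries for 2750 tested genes (21.7%) and below them for 2696 (21.2%), together 42.9%. Without vector A and H-Ras C, here called the 4-library fit, the same test called 7411 genes (58.4%), 3658 higher (28.8%) and 3753 lower (29.6%), and 3293 of the 3315 genes kept their call and direction. Counts of list genes are to be read against the 13.2% and 12.9% above, and in the 4-library fit against these larger shares. The libraries left out were those furthest from their own groups, which lowers the spread within groups. The p-values and counts of the 4-library fit are therefore biased towards more calls and are given as description only.

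**Figure D1:**
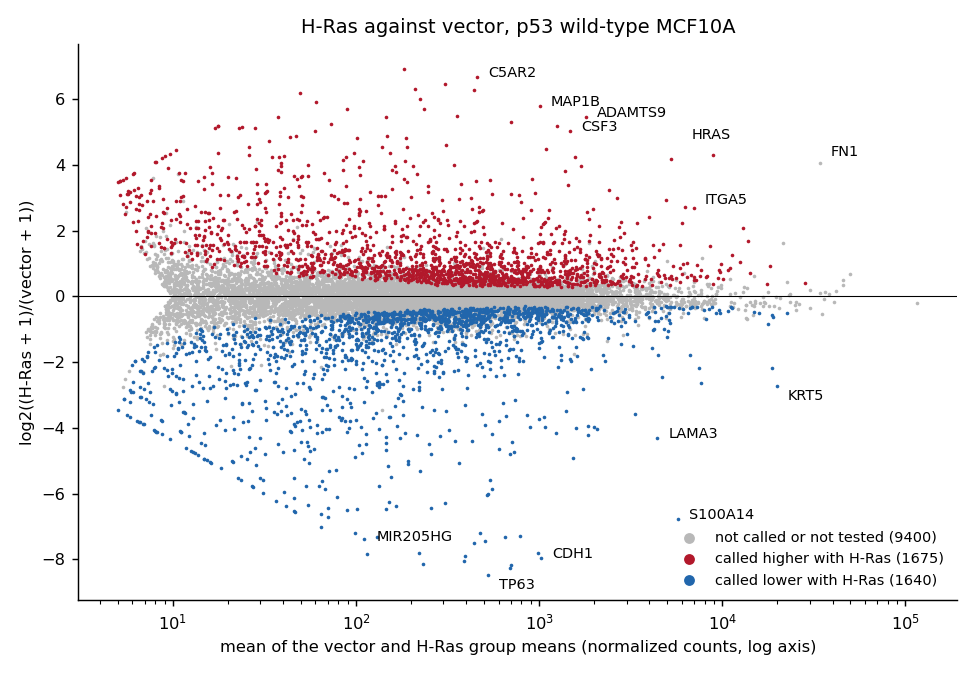
Mean level of each of the 12715 genes (x axis, normalized counts, log scale) against its log2 ratio of H-Ras to vector group means (y axis), coloured by the limma call. The lower side reaches past -8 (TP63 is marked) and the upper side past 6 (C5AR2), and HRAS and FN1 are abundant genes with a log2 ratio of about 4.

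HRAS, the introduced gene, had 717, 946 and 917 normalized counts in vector libraries A, B and C and 18454, 17583 and 14809.5 in H-Ras libraries A, B and C (log2 fold change 4.30 ± 0.14, adjusted p = 4.9e-06). Every H-Ras library was far above every vector library. The labels name the construct and do not give HRAS levels. Reads of the introduced and endogenous gene cannot be separated. Of the other RAS genes, RRAS2, a RAS-related GTPase, fell from 1859 to 1015 (log2 ratio -0.87). NRAS rose from 875 to 1216, a call that was lost without H-Ras B (adjusted p = 0.052, over a range of 0.00062 to 0.052 in the alternatives). Among the exchange factors and GTPase-activating proteins that switch RAS on and off, 2 of 14 rose and 2 fell (1 fell without vector B; 4 higher and 3 lower in the 4-library fit). The shares of all tested genes were 13.2% and 12.9%, and 28.8% and 29.6% in the 4-library fit. RASA3, a GTPase-activating protein, rose from 402 to 833 (log2 ratio 1.05), and DAB2IP, another one, fell from 1458 to 541 (log2 ratio -1.43). The kinases of the cascade itself were close to their vector level: log2 ratios of the 8 RAF, KSR, MEK and ERK genes measured ran from -0.14 to 0.47. MAP2K1, which encodes MEK1, was the 1 gene called, from 1738 to 2401, and was not called without H-Ras B, H-Ras A or vector B. Without vector A 2 were called higher, with 4 higher and 1 lower in the 4-library fit.

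The inhibitors that ERK signalling induces moved both ways. Of 17 DUSP, SPRY and SPRED genes tested, 7 rose and 4 fell (2 fell without H-Ras B). In the 4-library fit there were 9 higher and 5 lower. DUSP6, the cytoplasmic ERK phosphatase, had 1977, 1413 and 1428 normalized counts in vector libraries A, B and C and 5339, 5551 and 3302 in H-Ras libraries A, B and C. All H-Ras libraries were above all vector libraries (log2 fold change 1.54 ± 0.23, adjusted p = 0.0026). DUSP1 rose from 1018 to 4428 (log2 ratio 2.12) and SPRY2 from 121 to 447 (log2 ratio 1.88), whereas DUSP7 fell from 952 to 506 (log2 ratio -0.91). Among immediate-early and AP-1 genes, JUN rose from 402 to 817 (log2 ratio 1.02) and IER3 from 1586 to 3347 (log2 ratio 1.08), while FOS, at 218 and 202, and EGR1, at 583 and 598, did not pass the test (adjusted p = 0.87 and 0.9). Of 16 genes in that list 4 rose and 2 fell, with 2 higher without H-Ras B or H-Ras A and 8 higher and 2 lower in the 4-library fit. ETS factors moved both ways. ETV1 rose from 133 to 415 (log2 ratio 1.64) and ELK3 from 1214 to 2448 (log2 ratio 1.01), whereas ETS2 fell from 789 to 300.4 (log2 ratio -1.39). The epithelial ETS factor ELF3 had 1208, 626 and 487 against 1.91, 1.91 and 2.02 normalized counts in vector and H-Ras libraries A to C, and SPDEF, another epithelial ETS factor, had 0 reads with H-Ras, which is at least 65.4-fold below the vector group when 3 reads are taken as the floor for the group. On the phosphoinositide 3-kinase branch, 4 of 13 genes fell and 2 rose (6 higher and 4 lower in the 4-library fit). INPP5D, the phosphatase SHIP1, fell from 1126 to 79.9 (log2 ratio -3.80), with 1275, 1066 and 1036 against 92.6, 98.4 and 48.5 in the libraries of the groups, which did not overlap. INPP4B and PHLPP1, which also counter this branch, fell from 615 to 346 and from 423 to 203. The 2 rises in the list were not called in the fits that left out 1 of H-Ras B, H-Ras A, vector C and vector B.

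Several receptors upstream of RAS fell, while several of their ligands rose. Of 12 genes for EGF ligands and ERBB receptors, 4 rose and 5 fell (6 higher and 5 lower in the 4-library fit). EGFR fell from 5614 to 2780.3 (log2 ratio -1.01), ERBB2 from 826 to 476 (log2 ratio -0.79) and ERBB3 from 327 to 35.04 (log2 ratio -3.18), while the EGFR ligands EREG, AREG and EPGN rose from 471 to 2086, from 179.8 to 563 and from 82.1 to 268. HBEGF, another ligand, fell from 746 to 403 (log2 ratio -0.89). ERRFI1, an inhibitor of EGFR that is induced by its signalling, rose from 2136 to 6243 (log2 ratio 1.55), with an adjusted p of 0.051 without vector B (range over the alternatives 1.1e-09 to 0.051). Of 17 other receptor tyrosine kinase genes, 3 rose and 7 fell (6 higher and 7 lower in the 4-library fit). FGFR2, whose epithelial isoform is a marker of epithelial cells, had 44.7, 53.7 and 57.02 normalized counts in vector libraries A, B and C and 0.955, 0.956 and 1.01 in H-Ras libraries A, B and C, 1 read in each H-Ras library. FGFR1 went the other way, with 223, 203 and 216 against 636, 689 and 706 in the same order, and neither gene's groups overlapped. FGFR3 fell from 88.3 to 4.85 (log2 ratio -3.93), MST1R, the receptor of macrophage-stimulating protein, from 517 to 71.8 (log2 ratio -2.83), and the collagen receptor DDR1 from 3179 to 681 (log2 ratio -2.22). KDR, a VEGF receptor, rose from 20.5 to 107 (log2 ratio 2.33). MET and AXL, at 2327 and 2621 and 1278 and 1377, were not called (adjusted p = 0.32 and 0.64). EPHB3 and EPHA1, receptors for ephrins, fell from 200.4 to 7.77 (log2 ratio -4.52) and from 278 to 13.2 (log2 ratio -4.29), and the ligand EFNB2 rose from 1121 to 2457 (log2 ratio 1.13).

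Regulators of the epithelial state fell together. Of 18 epithelial transcription and splicing regulators, 16 fell and 1 rose, against the 12.9% and 13.2% of all tested genes, and their median log2 ratio was -2.32. In the 4-library fit the counts were 1 higher and 16 lower. KLF4 was the 1 that rose and was not called in the fits that left out 1 of H-Ras B, H-Ras A, vector C and vector B. In bulk RNA, fewer cells that express a gene and less RNA per cell cannot be told apart. TP63, the p63 factor of basal epithelium, had 1238, 938 and 970.5 normalized counts in vector libraries A, B and C and 0, 2.87 and 3.03 in H-Ras libraries A, B and C. ESRP1, which directs epithelial splicing of FGFR2 among other genes, had 1667, 1259 and 1233 against 5.73, 3.82 and 1.01 in the same order. For both, the lowest vector library was more than 100 times the highest H-Ras library. GRHL2 and OVOL2, which maintain epithelial identity, were 457 (95% interval 156 to 2218, 3 against 1327 reads) and 71.3 (95% interval 19.4 to 594, 2 against 138 reads) times higher in the vector group. FOXA1 fell from 127 to 12.1 (log2 ratio -3.29) and GRHL1 from 45.9 to 2.303 (log2 ratio -3.83). GATA3, at 179 and 146, was not called (adjusted p = 0.13). The repressors on the other side rose. ZEB1 had 14.9, 37.9 and 17.9 normalized counts in vector libraries A, B and C and 565, 574 and 648 in H-Ras libraries A, B and C, and ZEB2 had 13.1, 12.6 and 10.1 against 404, 418 and 262 in the same order. All H-Ras libraries were above all vector libraries for both genes (log2 fold change 4.71 ± 0.32, adjusted p = 7.9e-05 and log2 fold change 4.78 ± 0.23, adjusted p = 1.9e-05). SNAI2 rose from 349 to 916 (log2 ratio 1.39) and FOXC2 from 18.7 to 88.2 (log2 ratio 2.18), making 4 of 9 EMT factors higher and 0 lower (7 and 0 in the 4-library fit). SNAI1 and TWIST1, at 16 and 30.8 and 112 and 155, did not pass the test (adjusted p = 0.23 and 0.066).

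MIR205HG, the host transcript of the microRNA miR-205, had 1372, 873 and 784 normalized counts in vector libraries A, B and C and 2.86, 8.601 and 3.03 in H-Ras libraries A, B and C (log2 fold change -7.53 ± 0.39, adjusted p = 2.4e-05), so the lowest vector library was far above every H-Ras library. miR-205 is known to repress ZEB1 and ZEB2 through their 3′ untranslated regions. The small RNA itself was not measured in these libraries. Its mature sequence is shown because the host transcript was among the 20 largest falls, ranked by log2 ratio over called genes with a mean of at least 100, while both targets rose. Capitals mark the seed, bases 2 to 8 (RefSeq, GRCh38.p14, chr1:209432166-209432187, plus strand).
hsa-miR-205-5p: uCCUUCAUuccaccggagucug

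ZEB and SNAI repressors bind the E-box word CAGGTG, which reads CACCTG on the other strand. The word was searched on both strands in RefSeq promoters (GRCh38.p14, 250 bases before to 50 after a start, the first window listed for a gene), which were matched by name for 9917 of the 12715 genes, 9914 of them with a window of their own. It was found in 20.6% of all 27305 promoters and in 18.1% of the 9914. Grouped by response, the share was 52% of 50 promoters of genes with a log2 ratio of -5 or below, 43.2% of 118 between -5 and -3, 28.1% of 531 between -3 and -1, 17.2% of 8489 within 1 of 0, 15% of 614 between 1 and 3 and 11.6% of 112 at 3 or above. The share thus declined step by step from the genes that fell most to those that rose most. Among genes with a single listed window the shares at the ends were 54.8% of 42 and 10.1% of 79. Other words did not follow this order. The E-box CAGCTG was in 20%, 16% and 17% of the promoters in the lowest, middle and highest group, and the E-box CACGTG in 4%, 10.3% and 7.14%. The AP-1 word TGACTCA was in 10%, 2.74% and 8.93%, more often at both ends than in the middle. Median GC content was 61.7%, 65.7% and 60% in those groups. The words differ, but matches can share end bases, such as the TG of CAGGTG and TGACTCA, and how often they did was not tested. A match is a description of the letters, not of binding.

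**Figure D2:**
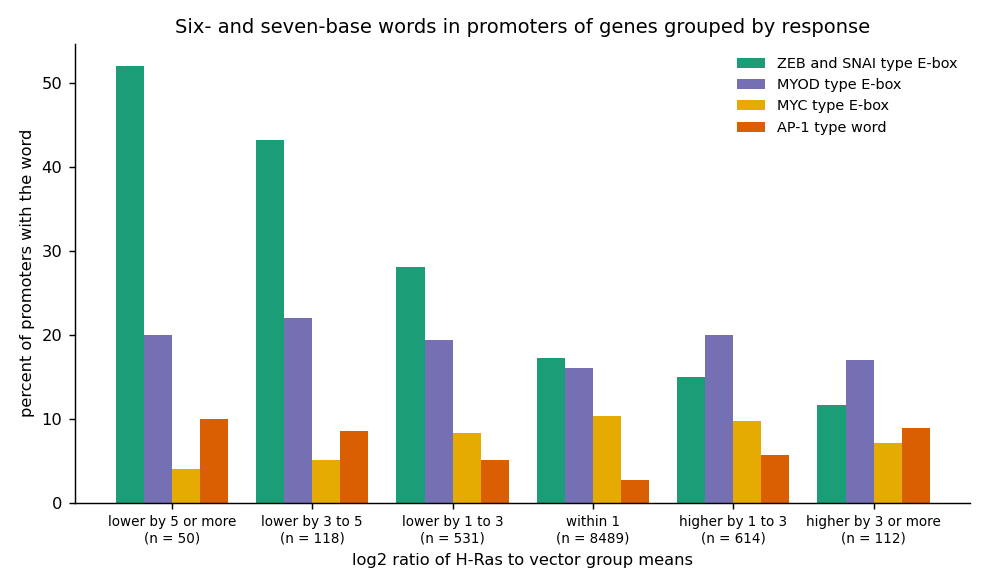
Percent of promoters (y axis) that hold each of 4 short words on either strand, for genes grouped by log2 ratio of H-Ras to vector (x axis, with the number of promoters). The ZEB and SNAI type E-box, CAGGTG, declines from 52% to 11.6% across the groups, and the MYOD type (CAGCTG) and MYC type (CACGTG) E-boxes and the AP-1 type word (TGACTCA) do not.

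Of the 20 largest falls, 13 had a promoter among those kept and 7 of these held CAGGTG. The 250 bases before the start are shown for the 4 in which the word lay within the last 100 of these bases. CAGGTG or CACCTG is in capitals (5′ to 3′ in the direction of the gene). LAD1 encodes ladinin, an anchoring protein of basement membranes, AP1M2 a clathrin adaptor subunit found in epithelia, RAB25 a small GTPase of apical recycling and S100A14 a calcium-binding protein of epithelia. Their windows lay at chr1:201399325-201399574, minus strand, chr19:10587313-10587562, minus strand, chr1:156060910-156061159, plus strand and chr1:153616326-153616575, minus strand, all in GRCh38.p14. The leftmost base of each match shown lay at positions -61 and -35 in LAD1, -57, -27 and -15 in AP1M2, -41 in RAB25 and -14 in S100A14, counted back from the start.
LAD1: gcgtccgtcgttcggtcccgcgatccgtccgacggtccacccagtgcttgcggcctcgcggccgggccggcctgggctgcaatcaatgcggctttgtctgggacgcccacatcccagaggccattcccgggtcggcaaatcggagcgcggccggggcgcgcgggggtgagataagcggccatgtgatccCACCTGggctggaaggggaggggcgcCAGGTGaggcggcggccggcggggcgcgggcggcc
AP1M2: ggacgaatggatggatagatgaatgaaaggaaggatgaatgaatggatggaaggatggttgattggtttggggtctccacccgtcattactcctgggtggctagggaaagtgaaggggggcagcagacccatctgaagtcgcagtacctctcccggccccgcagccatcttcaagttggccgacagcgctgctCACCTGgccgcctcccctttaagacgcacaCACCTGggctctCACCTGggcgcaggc
RAB25: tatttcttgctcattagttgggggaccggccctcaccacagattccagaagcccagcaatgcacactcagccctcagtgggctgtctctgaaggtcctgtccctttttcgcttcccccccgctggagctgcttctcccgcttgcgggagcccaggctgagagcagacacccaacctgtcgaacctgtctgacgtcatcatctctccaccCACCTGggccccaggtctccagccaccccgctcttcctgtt
S100A14: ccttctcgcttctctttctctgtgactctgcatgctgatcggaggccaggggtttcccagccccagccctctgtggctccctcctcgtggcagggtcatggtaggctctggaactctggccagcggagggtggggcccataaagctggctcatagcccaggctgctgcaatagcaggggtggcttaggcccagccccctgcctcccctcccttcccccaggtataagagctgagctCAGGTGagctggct

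S100A14 had 14121, 9726 and 10383 normalized counts in vector libraries A, B and C and 116, 121 and 69.8 in H-Ras libraries A, B and C. RAB25 had 949.9, 701 and 689 against 1.91, 2.87 and 2.02 and LAD1 1366, 1342 and 1496 against 2.86, 4.78 and 4.04 in the same order. None of these genes had an H-Ras library near a vector library. AP1M2 was 723 (95% interval 199.6 to 5972, 2 against 1399 reads) times higher in the vector group.

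On the rising side 13 of the 20 largest rises had a promoter among those kept, and 3 of these held TGACTCA or TGAGTCA. The complement receptor genes C5AR2 and C3AR1 held it within the 250 bases before the start, and those windows (chr19:47331925-47332174, plus strand, and chr12:8066360-8066609, minus strand, GRCh38.p14) are shown with the word in capitals.
C5AR2: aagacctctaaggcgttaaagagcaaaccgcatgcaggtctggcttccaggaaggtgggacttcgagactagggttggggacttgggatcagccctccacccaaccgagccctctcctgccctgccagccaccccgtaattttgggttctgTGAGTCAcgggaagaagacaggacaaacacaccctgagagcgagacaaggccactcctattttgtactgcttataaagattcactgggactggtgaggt
C3AR1: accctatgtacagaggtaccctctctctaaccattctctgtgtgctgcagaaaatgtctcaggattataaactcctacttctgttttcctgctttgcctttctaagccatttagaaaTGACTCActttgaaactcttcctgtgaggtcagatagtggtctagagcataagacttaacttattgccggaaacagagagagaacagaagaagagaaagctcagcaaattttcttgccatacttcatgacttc

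Most desmosome, tight junction and apical polarity genes fell, while cadherin and gap junction genes moved both ways. In the desmosome, the spot junction that ties keratin filaments to the membrane, 9 of 10 genes fell and none rose, with the same counts in the 4-library fit. DSG3, a desmosomal cadherin of basal cells, fell from 1362 to 62.5 (log2 ratio -4.42), the plakophilins PKP2 and PKP3 from 1008 to 228 and from 1278 to 246 and desmoplakin, DSP, from 6895 to 1997. DSG2 was the 1 not called, at 2919.7 and 2632 (adjusted p = 0.25). Of 15 tight junction genes 12 fell and 2 rose, also in the 4-library fit. MARVELD3 and TJP3 fell from 155 to 1.29 (log2 ratio -6.09) and from 109 to 3.22 (log2 ratio -4.70), the sealing claudin CLDN1 from 1408 to 51.96 (log2 ratio -4.73) and occludin, OCLN, from 161 to 22.2 (log2 ratio -2.80). The genes that rose were CLDN12 (from 486 to 1007) and JAM3, a junctional adhesion molecule (from 6.43 to 53.1). Genes of apical trafficking and polarity had the lowest median of these groups, -3.24, and 19 of 25 fell with none higher (0 and 21 in the 4-library fit). MYO5B, a motor of apical recycling, fell from 507 to 4.91 (log2 ratio -6.43), EPN3 from 328 to 2.96 (log2 ratio -6.38) and LLGL2 from 605 to 35.6 (log2 ratio -4.05). CRB3, the apical Crumbs protein of epithelia, was without reads in the H-Ras group, at least 87.8-fold below the vector group. Of 8 gap junction and pannexin genes 3 fell and 1 rose, with a median log2 ratio of 0.00, 2 higher without vector A, 4 higher without H-Ras C and 4 higher and 4 lower in the 4-library fit. GJB5 fell from 361 to 50.5, whereas the related pannexin PANX1 rose from 845 to 2371 (log2 ratio 1.49).

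Cadherins were exchanged. CDH1, E-cadherin, had 2443, 1844 and 1835 normalized counts in vector libraries A, B and C and 11.46, 3.82 and 6.07 in H-Ras libraries A, B and C, and CDH3, P-cadherin, fell from 3005 to 186 (log2 ratio -4.00). CDH2, N-cadherin, had 76.2, 194 and 190.1 against 531, 529 and 599.5 in the same order, and CDH11, a cadherin of mesenchymal cells, 21.03, 17.9 and 19.01 against 369, 373 and 306. Vector A was the lowest library for CDH2, and the groups did not overlap for any of these 4 genes. Of 11 cadherin and catenin genes 5 fell and 3 rose, also in the 4-library fit. Of the catenins, CTNND1 (p120) and JUP (plakoglobin) fell from 6842 to 3297 and from 3664 to 936, while CTNNA1 and CTNNB1, at 7538 and 7696 and 3479.9 and 3439.6, were not called (adjusted p = 0.87 and 0.91).

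**Figure D3:**
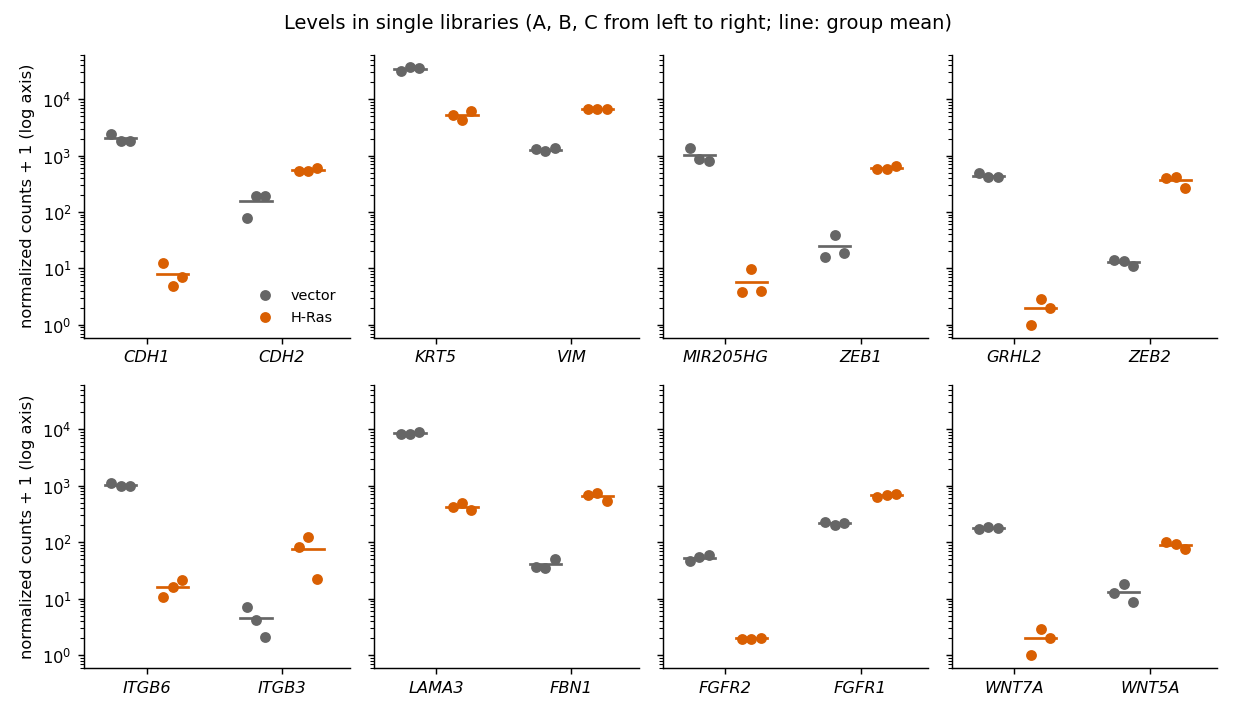
Levels in single libraries (y axis, normalized counts + 1, log scale) of 8 genes that fell and 8 that rose, side by side, with vector libraries in grey, H-Ras libraries in orange and the group mean as a line. Within each gene the 3 vector and the 3 H-Ras libraries do not overlap, as for CDH1 and CDH2 or FGFR2 and FGFR1.

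Keratins, the intermediate filaments of epithelia, fell in 11 of 15 genes and rose in 1, and their share of all normalized counts went from 1.08% to 0.395%. In the 4-library fit the counts were 2 higher and 11 lower. KRT5, the main basal keratin, had 31372, 36295 and 36180.2 normalized counts in vector libraries A, B and C and 5299, 4256 and 6180.4 in H-Ras libraries A, B and C, the largest fall of any tested gene in normalized counts. KRT17 had 758, 1017 and 1076 against 9.55, 5.73 and 1.01 and KRT15 6031, 3105 and 2558 against 275, 302 and 132 in the same order, and the groups did not overlap for any of the 3. The simple keratins KRT8 and KRT18 fell less, from 6411 to 3862 (log2 ratio -0.73) and from 2370.1 to 823 (log2 ratio -1.53), and KRT7 from 22812 to 12769.6 (log2 ratio -0.84). KRT80 and KRT81 were not called (1094 and 1365, adjusted p = 0.092, and 7186 and 7459, adjusted p = 0.86). KRT6A, KRT6B and KRT6C share sequence, so that reads may be split among them, and fell from 12184 to 2662, from 1051 to 20.7 and from 11.8 to 2.603. KRT34 was the 1 keratin that rose, from 1.37 to 25.96. VIM, vimentin, had 1286, 1186 and 1337 against 6608, 6781 and 6803 in the same order, with every H-Ras library above every vector library.

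Proteases and secreted products of stratified epithelium fell as well. Among kallikreins and membrane serine proteases 9 of 10 fell and none rose (0 and 10 in the 4-library fit), with a median log2 ratio of -4.85. KLK10 and KLK7 were without reads in the H-Ras group, at least 96.7-fold and 47.2-fold below the vector group. The membrane protease matriptase, ST14, fell from 2946 to 96.6 (log2 ratio -4.92), its activator prostasin, PRSS8, from 333 to 26.3 (log2 ratio -3.62), and its inhibitor SPINT2 from 2371 to 605 (log2 ratio -1.97). Of 8 cornified envelope genes 6 fell and 1 rose (none rose without H-Ras B or H-Ras A; 1 higher and 7 lower in the 4-library fit). SCEL, sciellin, was 444 (95% interval 79.3 to 17583, 1 against 430 reads) times higher in the vector group, and TGM1, the crosslinking transglutaminase, fell from 114 to 3.56 (log2 ratio -4.65). Surface and luminal genes fell in 13 of 16 cases and rose in 1 (2 rose without vector A or H-Ras C; 2 higher and 13 lower in the 4-library fit). EPCAM fell from 1094 to 17.7 (log2 ratio -5.87) and LCN2, lipocalin-2, from 718 to 71.8 (log2 ratio -3.30). MUC16 was 631 (95% interval 113 to 24968, 1 against 611 reads) times higher in the vector group, while CDCP1, a surface substrate of SRC kinases, rose from 2359 to 7153. S100 genes went both ways: S100A2 fell from 30690.0 to 6718 (log2 ratio -2.19) and S100A4, a marker of motile mesenchymal cells, rose from 512 to 1574 (log2 ratio 1.62). Further genes among the 20 largest falls were FXYD3, a sodium pump regulator (from 1973 to 7.75), AQP3, a water and glycerol channel (from 1562 to 8.99), the giant cadherin FAT2 (from 1288 to 7.13), NGFR, the p75 neurotrophin receptor, at 416 (95% interval 115 to 3439, 2 against 805 reads) times higher in the vector group, and GRAMD2, at 699 (95% interval 125 to 27660.4, 1 against 677 reads) times.

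Some hemidesmosome genes fell, and integrin genes rose more often than they fell. Of 11 hemidesmosome and laminin-332 genes 5 fell and none rose (1 rose without H-Ras C; 2 higher and 6 lower in the 4-library fit). LAMA3, the alpha chain of laminin-332, had 8307, 8184 and 8764 normalized counts in vector libraries A, B and C and 414, 493 and 370.0 in H-Ras libraries A, B and C, while LAMB3, the beta chain, at 7408 and 9595, was not called (adjusted p = 0.11). The LAMA3 groups lay far apart. COL17A1 and ITGB4, both parts of the hemidesmosome, fell from 6129 to 510.0 (log2 ratio -3.58) and from 10279 to 3019 (log2 ratio -1.77), while ITGA6, the partner of ITGB4, had 7675 and 6448 and was not called (adjusted p = 0.12). Of 17 integrin genes 10 rose and 3 fell, with 6 higher without vector B, vector C or H-Ras B and 12 higher and 4 lower in the 4-library fit. ITGA5, which with ITGB1 forms the main fibronectin receptor, had 2439, 1575 and 1565 against 14431, 14487 and 7415 in vector and H-Ras libraries A to C, and ITGB1 8241, 7707 and 8290.4 against 16594, 18667 and 15433. Every H-Ras library was above every vector library for both. ITGB3 and ITGB5 rose from 3.47 to 74.3 (log2 ratio 4.07) and from 1506 to 2835 (log2 ratio 0.91). ITGB6, the epithelial beta chain that pairs with the alpha V chain, fell from 1034 to 15.02 (log2 ratio -6.01).

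Genes of the secreted matrix were called higher more often than lower, and FN1 had the largest increase of its mean. The authors' deposited group means for FN1, fibronectin, were 3845 and 64070 normalized counts (log2 ratio 4.06), the largest difference in counts of any gene. It had no unique solution for single libraries, so it has no standard error and no test. Of 20 other matricellular and glycoprotein genes 9 rose and 3 fell (15 higher and 4 lower in the 4-library fit). FBN1, fibrillin, had 35.1, 33.7 and 49.2 against 672, 730.1 and 538, and LOX, which crosslinks collagen, 772, 486 and 370.1 against 3987, 4412 and 1818. The groups stayed apart for both. SPARC, a secreted matrix protein that binds collagen, rose from 2.95 to 72.9 (log2 ratio 4.23). Of 19 collagen genes 5 rose and 6 fell, and 10 higher and 6 lower were called in the 4-library fit. All 3 collagen VI chains rose, COL6A1 from 1.97 to 84.7 and COL6A3 from 10.4 to 875, and COL6A2 was 142 (95% interval 25.1 to 5659, 1 against 147 reads) times higher with H-Ras. COL12A1, COL8A1 and COL1A1 fell from 1488 to 496, from 360.0 to 78.3 and from 108 to 36.5. Among proteoglycans 7 of 14 rose and 3 fell (8 higher and 4 lower in the 4-library fit). Serglycin, SRGN, rose from 7.91 to 461 (log2 ratio 5.70), decorin, DCN, from 157 to 2990.4 (log2 ratio 4.24) and versican, VCAN, from 355 to 1873 (log2 ratio 2.40), while the epithelial syndecan SDC1 and the basement membrane perlecan, HSPG2, fell from 3451 to 998 (log2 ratio -1.79) and from 2488 to 709 (log2 ratio -1.81).

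Genes of the ADAM and ADAMTS, MMP and TIMP, and plasminogen system lists rose more often than they fell. Of 15 ADAM and ADAMTS genes 9 rose and none fell (1 fell without vector A; 12 higher and 1 lower in the 4-library fit). ADAMTS9, which cleaves proteoglycans, had 76.2, 80.1 and 81.6 normalized counts in vector libraries A, B and C and 3984, 4277 and 2297 in H-Ras libraries A, B and C (log2 fold change 5.40 ± 0.23, adjusted p = 1.1e-05). ADAM12, a protease of mesenchymal cells, had 182, 178 and 210.2 against 1491, 1568 and 1171 in the same order. In both cases every H-Ras library was above every vector library. ADAMTS12, ADAM19 and the ADAMTS-like gene ADAMTSL4 rose from 10.9 to 206, from 329 to 1023 and from 48.03 to 311. Of 13 MMP and TIMP genes 7 rose and 3 fell (8 higher and 4 lower in the 4-library fit). MMP2, MMP14 and MMP1 rose from 211 to 791, from 2232 to 4519 and from 4.98 to 52.3. TIMP1 rose from 1649.7 to 10899.6 (log2 ratio 2.72), and TIMP3 fell from 1326 to 149 (log2 ratio -3.15). SERPINE2, a serine protease inhibitor, had 205, 257 and 288 against 2874, 3141 and 1855 in vector and H-Ras libraries A to C. PLAUR, the urokinase receptor, rose from 252 to 699 (log2 ratio 1.47), and thrombomodulin, THBD, from 84.1 to 510.0 (log2 ratio 2.59). The groups did not overlap for SERPINE2. In all 5 of 12 plasminogen system genes rose and 3 fell (1 fell without vector C, H-Ras A or H-Ras B; 7 higher and 3 lower in the 4-library fit).

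In families of developmental pathways, some ligands and receptors rose while others fell. LTBP1, which stores latent TGF-beta in the matrix, had 81.5, 65.3 and 50.3 normalized counts in vector libraries A, B and C and 2689, 2944 and 1633 in H-Ras libraries A, B and C. INHBA, the activin A subunit, rose from 779.7 to 2527 (log2 ratio 1.70) and its antagonist follistatin, FST, fell from 119.8 to 10.04 (log2 ratio -3.45). Every H-Ras library was above every vector library for LTBP1. Of 27 TGF-beta pathway genes 6 rose and 3 fell, against 13.2% and 12.9% of all tested genes. Without vector B, H-Ras A or H-Ras B 3 rose, and without H-Ras C 13. In the 4-library fit 14 rose and 4 fell, against 28.8% and 29.6% of all tested genes. Among 23 WNT genes 4 rose and 8 fell (7 higher and 10 lower in the 4-library fit). WNT7A was 181 (95% interval 61.6 to 881, 3 against 526 reads) times higher in the vector group, WNT7B fell from 237 to 67.8 (log2 ratio -1.79), and WNT5A, a ligand of the branch that does not act through beta-catenin, rose from 12.03 to 89.3 (log2 ratio 2.79). The secreted inhibitors SFRP1 and DKK1 fell from 1977 to 155 (log2 ratio -3.66) and from 791 to 178 (log2 ratio -2.14), as did RNF43, which removes WNT receptors from the membrane (from 132 to 11.1). NOTCH1 and its ligand JAG2 fell from 1197 to 388 (log2 ratio -1.62) and from 445 to 88.3 (log2 ratio -2.32), whereas NOTCH2 rose from 1882 to 3873 (log2 ratio 1.04). Of 12 Notch genes 4 rose and 4 fell, with 1 higher in the fits that left out 1 of H-Ras B, H-Ras A, vector C and vector B and 6 higher and 4 lower in the 4-library fit.

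Chemokine genes rose nearly throughout, and interleukin genes rose more often than they fell. Of 8 chemokine genes 7 rose and 1 fell, also in the 4-library fit, with a median log2 ratio of 2.63. CXCL3, a neutrophil attractant, had 40.3, 29.5 and 30.2 normalized counts in vector libraries A, B and C and 1245, 1455 and 1392 in H-Ras libraries A, B and C. IL8 (CXCL8) had 777, 509.9 and 499.8 against 4977, 5749 and 3404 in the same order, and CCL20, which attracts cells with the receptor CCR6, rose from 155 to 761 (log2 ratio 2.29). Each of these had its H-Ras libraries above its vector libraries. CXCL16 fell from 171 to 15.8 (log2 ratio -3.35). Of 29 interleukin, colony-stimulating factor and receptor genes 14 rose and 4 fell (21 higher and 5 lower in the 4-library fit). The growth factors of granulocytes CSF3 and CSF2 rose from 86.2 to 2860.1 (log2 ratio 5.04) and from 9.99 to 159 (log2 ratio 3.86). The receptors IL1RL1 and IL1R1 rose from 2.87 to 144 (log2 ratio 5.23) and from 67.5 to 525 (log2 ratio 2.94), and the interleukin-1 antagonist IL1RN fell from 50.2 to 1.61 (log2 ratio -4.29). IL18, another member of the family, fell from 1646 to 703 (log2 ratio -1.23). Receptors for complement fragments and formyl peptides were among the largest rises. C5AR2 had 4.38, 10.5 and 8.94 against 1292, 1200.3 and 242 in vector and H-Ras libraries A to C, C3AR1 12.3, 4.21 and 1.12 against 710.3, 734 and 364 and FPR1 5.26, 5.27 and 2.24 against 553, 524 and 165. In each case H-Ras C was the lowest H-Ras library and was still above all vector libraries. Of 14 genes in that list 7 rose and 1 fell, with 4 higher in the fits that left out 1 of H-Ras B, H-Ras A, vector C and vector B and 12 higher and 2 lower in the 4-library fit. PTGS2, the inducible cyclooxygenase, rose from 27.3 to 337 (log2 ratio 3.58) and PTGS1, the constitutive one, fell from 115 to 23.5 (log2 ratio -2.25). CD59, which protects cells from complement, rose from 6566 to 13031 (log2 ratio 0.99). Among guidance and vascular genes NRP1 rose from 524 to 3144 (log2 ratio 2.58) and NRP2 fell from 652 to 284 (log2 ratio -1.20), SEMA7A rose from 162 to 1381 (log2 ratio 3.08) and ANGPTL4 from 1193 to 5617 (log2 ratio 2.23).

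In the BCL2 family, which controls apoptosis, 3 genes that protect cells rose, and genes that promote death fell. The protective genes MCL1, BCL2L1 and BCL2A1 rose from 4415 to 12628 (log2 ratio 1.52), from 1961 to 3900.3 (log2 ratio 0.99) and from 2.54 to 41.5 (log2 ratio 3.59). The killers BIK and BCL2L11 (BIM) fell from 405 to 80.7 (log2 ratio -2.31) and from 143 to 56.7 (log2 ratio -1.32), and HRK, without reads in the H-Ras group, was at least 141-fold below the vector group. In all 3 of 16 rose and 5 fell, and in the 4-library fit 4 rose and 7 fell. BCL2, BAX and PMAIP1 were not called, at 46.2 and 37.96, 871 and 1053 and 231 and 214 (adjusted p = 0.45, 0.16 and 0.71). Of 24 genes that p53 induces 4 rose and 7 fell (7 higher and 11 lower in the 4-library fit). Of all tested genes 13.2% rose and 12.9% fell, and 28.8% were higher and 29.6% lower in the 4-library fit. CDKN1A, the inhibitor p21, had 2004, 2222 and 2326 against 4168, 3980.4 and 3369, and RRM2B and GADD45A rose from 939 to 1764 and from 291 to 558, while SFN (14-3-3 sigma), PLK2 and BTG2 fell from 7881 to 1435 (log2 ratio -2.46), from 480.0 to 87.5 (log2 ratio -2.44) and from 222 to 91.5 (log2 ratio -1.27). The CDKN1A groups did not overlap. MDM2, at 1240.1 and 933, was not called (adjusted p = 0.075). CCND2, cyclin D2, fell from 1232 to 317 (log2 ratio -1.95).

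The result for proliferation genes depended on which libraries were used. Of 24 DNA replication genes 4 fell and of 23 mitosis genes none did, and none rose in either list, with median log2 ratios of -1.03 and -0.61. For mitosis, 1 gene had an unadjusted p under 0.05 with limma, and limma-voom called 0. Against the mean of the vector libraries, replication genes had median log2 levels of -0.47, 0.18 and 0.29 in vector A, B and C and -1.65, -1.83 and -0.01 in H-Ras A, B and C. Mitosis genes had -0.58, 0.28 and 0.34 and -1.12, -1.26 and 0.23. H-Ras A and B were thus low in both lists, and H-Ras C was at or above the vector mean. Without H-Ras C, 23 replication and 15 mitosis genes were called lower, and in the 4-library fit 24 and 21. In the fits that left out 1 of H-Ras B, H-Ras A, vector C and vector B, 0 or 1 replication genes and no mitosis gene were called. Of all 23 mitosis genes, 1 was called lower without vector A. MCM7, a subunit of the replicative helicase, shows the pattern, with 2799.7, 4387 and 4658 normalized counts in vector A, B and C and 1106, 963 and 3218 in H-Ras A, B and C, and MKI67, the proliferation marker Ki-67, had 3213, 5737 and 5664 against 1959.9, 1709 and 5530.3 in the same order. The groups overlapped for both genes, which were not called (adjusted p = 0.063 and 0.21). The desmosome genes, by contrast, had medians of -1.41, -1.44 and -1.67 in H-Ras A, B and C, so that H-Ras C was not above the others there.

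**Figure D4:**
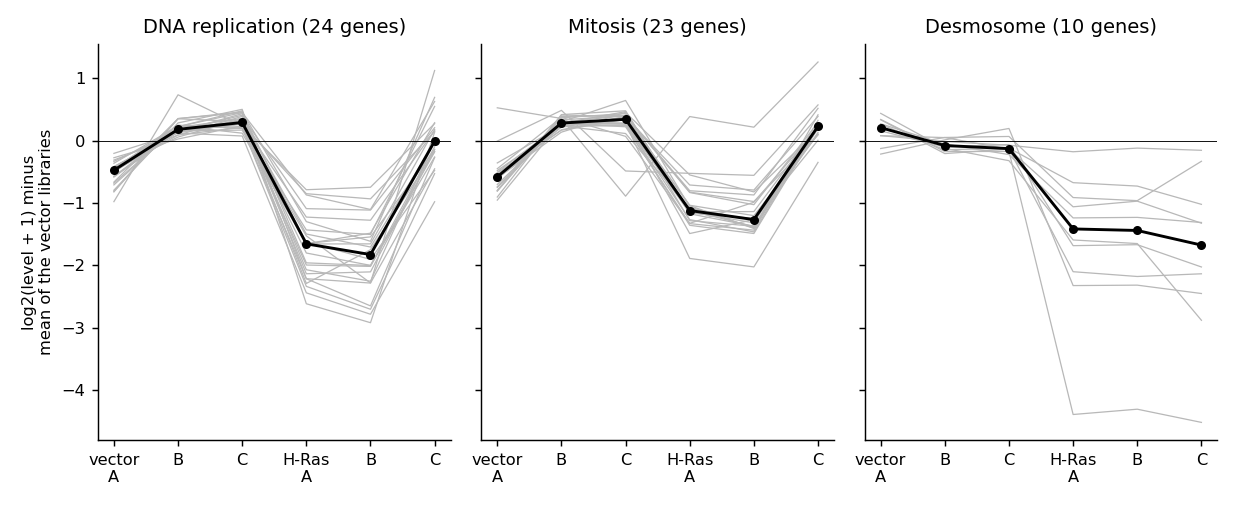
Level of each gene of 3 lists in the 6 libraries (y axis, log2(normalized counts + 1) minus the gene's mean over the vector libraries), with single genes in grey and the list's median in black. Replication and mitosis medians return to -0.01 and 0.23 in H-Ras C, while the desmosome median is -1.67 there.

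Metabolic genes changed in part. Of 21 glycolysis and glucose transport genes 11 rose and none fell, but 5 or 6 rose in the fits that left out 1 of H-Ras B, H-Ras A, vector C and vector B, 1 fell without vector A and 1 without H-Ras C. There were 13 higher and 1 lower in the 4-library fit. SLC2A3, the glucose transporter GLUT3, had 260.3, 86.4 and 73.8 normalized counts in vector libraries A, B and C and 2096, 2137 and 842 in H-Ras libraries A, B and C, and enolase 2, ENO2, 71.9, 31.6 and 25.7 against 523, 526 and 301.3 in the same order. PGK1 rose from 7814 to 13612 (log2 ratio 0.80). For SLC2A3 and ENO2 the groups stayed apart. The aldo-keto reductase AKR1B1 had 7636, 3442 and 3617 against 16490.0, 31252 and 14954, the largest rise in counts among tested genes after HRAS. AKR1C1, AKR1C2 and AKR1C3, near copies whose reads may be shared, rose from 184 to 2597, from 375 to 1726 and from 582 to 1785. Among aldehyde dehydrogenases 7 of 13 fell, and ALDH1A3, the main enzyme of that activity in many mammary cells, fell from 3457 to 223 (log2 ratio -3.95). In that list 1 gene rose, with 0 higher in the fits that left out 1 of H-Ras B, H-Ras A, vector C and vector B and 2 without vector A or H-Ras C, and 4 higher and 8 lower in the 4-library fit. SLC7A5 and SLC3A2, the subunits of the amino acid transporter LAT1, fell from 13226 to 2155 (log2 ratio -2.62) and from 4806 to 1679 (log2 ratio -1.52), although other ATF4 targets such as CHAC1 and VLDLR rose from 4.69 to 59.5 and from 7.99 to 168. Ribosomal protein genes showed small falls: 14 of 31 were called lower and none higher, with a median log2 ratio of -0.32, with 1 called without H-Ras B, 6 without H-Ras A, 4 without vector C, 8 without vector B and 22 in the 4-library fit. Cathepsin B, CTSB, the matrix protein TGFBI and the kinase MAP4K4 were among the 10 largest rises in counts, from 6574 to 15876, from 12669 to 23918 and from 6540.1 to 21118.

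Some genes best known from neurons were among the largest rises. MAP1B, a microtubule-associated protein of axons, had 49.1, 23.2 and 32.4 normalized counts in vector libraries A, B and C and 2097, 2155 and 1680.3 in H-Ras libraries A, B and C (log2 fold change 5.84 ± 0.26, adjusted p = 1.3e-05). KCNMA1, a calcium-activated potassium channel, had 7.01, 13.7 and 5.59 against 308, 334 and 217 in the same order, and NTSR1, the neurotensin receptor, 4.38, 1.05 and 2.24 against 158, 136 and 54.6. All H-Ras libraries were above all vector libraries for these genes. The calcium channel subunit CACNG7 was 119.7 (95% interval 40.7 to 583, 3 against 371 reads) times higher with H-Ras, and CACNG8 rose from 8.45 to 125 (log2 ratio 3.74). The synaptotagmin SYT8 fell from 879.8 to 3.82 (log2 ratio -7.51). Of 19 channel and synaptic genes 7 rose and 4 fell (2 fell without vector B or H-Ras B; 11 higher and 5 lower in the 4-library fit). Others among the 20 largest rises by log2 ratio, over called genes with a mean of at least 100, were the blood cell genes SAMSN1 and PTPN22 (from 14.4 to 698 and from 5.999 to 196), the acid-sensing receptor GPR4 (from 2.37 to 176) and the WNT inhibitor homologue APCDD1L (from 5.51 to 285), whose reads cannot be told apart from those of its antisense gene because the strand setting is not given. Of cytoskeletal genes, TPM4 and TAGLN2, actin-binding proteins, rose from 7223 to 12102 (log2 ratio 0.74) and from 5561 to 9727 (log2 ratio 0.81), RND3 rose from 277 to 877 (log2 ratio 1.66) and RHOB from 96.5 to 311 (log2 ratio 1.68), while RHOD and the exchange factor VAV3 fell from 698 to 198 (log2 ratio -1.81) and from 216 to 27.8 (log2 ratio -2.91). ACTA2 and TAGLN, smooth muscle markers often measured in EMT, were at 51.8 and 34.9 and 46.7 and 16.05 and were not called (adjusted p = 0.14 and 0.095). Among other transcription factors TBX3 and NR2F1 rose from 124 to 613 (log2 ratio 2.30) and from 39.4 to 235 (log2 ratio 2.55), and ID3 and SOX15 fell from 129.9 to 6.98 (log2 ratio -4.04) and from 498 to 99.9 (log2 ratio -2.31). The long noncoding RNAs UCA1 and H19 fell from 116 to 5.54 (log2 ratio -4.16) and from 99.7 to 13.1 (log2 ratio -2.83).

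Markers of cell types were set beside these results. The 9 basal markers summed to 90442 to 93859 normalized counts in the vector libraries and 35866 to 41040.0 in the H-Ras libraries, and the 9 luminal markers to 13321 to 14381 and 4297 to 5731. The vector line thus held the markers of both layers, as is known of MCF10A, and KRT19 alone among the 18 stayed below 10 in both groups. Fibroblast markers summed to 393 to 556 and 2520.5 to 3922, with decorin making most of the rise, while the defining fibrillar collagens COL1A2 and COL3A1 had 0 reads in all 6 libraries and PDGFRA, PDGFRB and THY1 stayed under 10 in both groups. Leukocyte markers summed to 322 to 949.9 and 529.8 to 1385, with PTPRC and CD3E at 0 in all 6 and CD68 and ITGAM under 10. Of the 3 tested, LAPTM5 rose from 62.7 to 687 and CSF1R fell from 35.3 to 15.5. CD14 had 428 and 381 and was not called (adjusted p = 0.89). In the 4-library fit CD14 was called higher (adjusted p = 6.5e-06), against the direction of these means. CSF1R was not called without a filter on low values, in the 4-library fit (adjusted p = 0.07) or in the fits that left out vector A, vector B, vector C, H-Ras A or H-Ras C. Endothelial markers summed to 168 to 203 and 659 to 838, with ROBO4 and KDR called higher of 3 tested, ROBO4 from 143 to 635, and PECAM1 at 0 in all 6. The third gene tested, CDH5 (VE-cadherin), went the other way, with a log2 ratio of -2.72. It was not called, although all 3 had an unadjusted p under 0.05 with limma. The part of other cell types in the results above was not tested beyond these values.

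**Figure D5:**
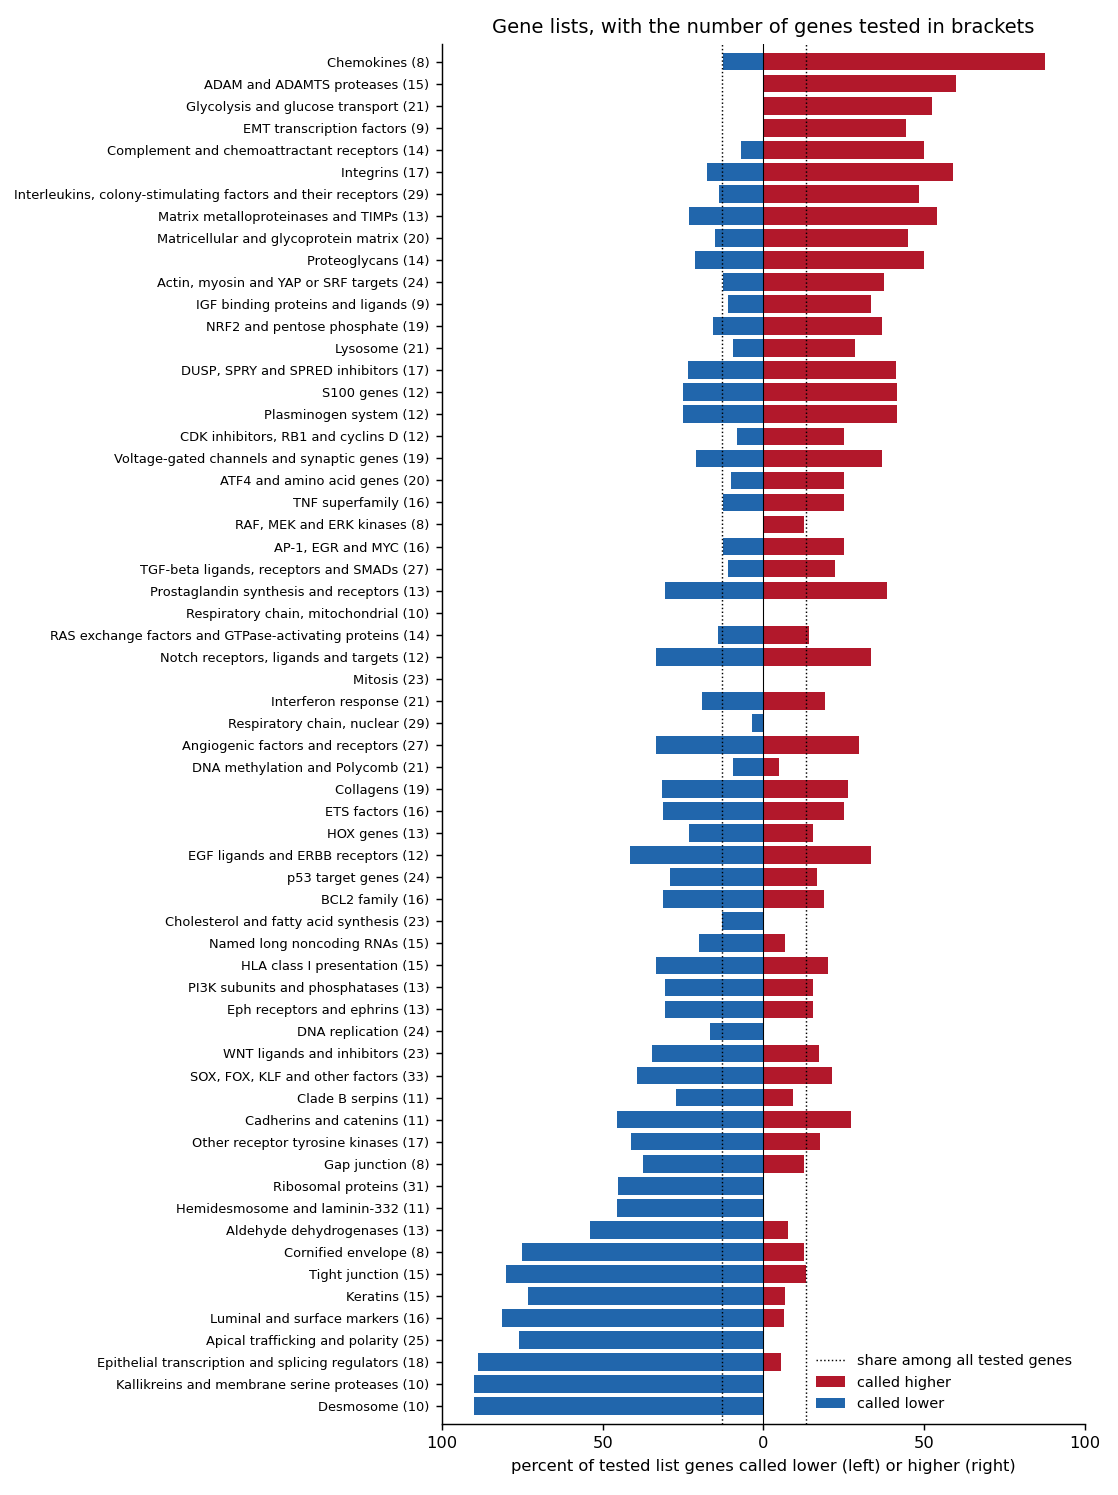
Percent of tested genes of each list called higher (right, red) or lower (left, blue) with H-Ras, for lists with at least 8 genes tested (number in brackets; 1 such list is not shown), with dotted lines at the 13.2% and 12.9% of all tested genes. Desmosome, kallikrein and epithelial regulator lists reach 90% lower or nearly so at the bottom, and chemokine, ADAM and glycolysis lists lie at the top.

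The response was set against that of the p53-deleted pair, each within its own table, by a contrast of the 2 differences over the 12 libraries. It was called for 2177 of 12681 genes (17.2%), 1006 (7.93%) above 0, where the log2 response was higher with intact p53, and 1171 (9.23%) below 0. NGFR fell in the p53 wild-type pair as given above and had a log2 ratio of -1.58 in the p53-deleted pair (difference -5.82 ± 0.69, adjusted p = 0.00017). PI3, the protease inhibitor elafin, rose from 127 to 319 in the p53 wild-type pair, with a log2 ratio of 1.32, against -4.31 in the p53-deleted pair (difference 5.70 ± 0.30, adjusted p = 4e-07). CDH1 and ZEB1 had log2 ratios of -6.27 and 6.25 in the p53-deleted pair, and their differences were -1.80 ± 0.37, adjusted p = 0.0059 and -1.58 ± 0.43, adjusted p = 0.024. p53 status was tied to the pair of lines, so that the 2 cannot be told apart.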

How the data were processed

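Libraries were poly(A)-selected RNA of MCF10A cells made with a TruSeq kit, per the labels' protocols. The submitters' processing notes name FastQC, Trimmomatic, TopHat, SAMtools, HTSeq and GRCh37, without roles or versions. The authors deposited 1 signal value per gene and group. The headers do not state its scaling. The lowest values were sums of whole multiples of 3 steps per group, so the values were read as means over 3 libraries of read counts divided by a size factor. From these means, whole reads per library were solved and divided by the size factors again, a step tested on simulated data. Log2(value + 1) was tested in R 4.3.3 by limma (version 3.58.1, trend option, two-sided), with a Benjamini-Hochberg adjusted p under 0.05 over all genes with a mean of at least 10 in either group. Intervals and floors of ratios with few reads cover counting error only. The tables were normalized separately, so the backgrounds were compared only through their differences. The authors' deposited fold changes and p-values were not used. Named genes were HRAS, the 20 largest ratios each way with a mean of at least 100, the 10 largest differences in counts each way, up to 5 genes per list with a mean of at least 50, and list members needed to describe a list. Members, lists and named genes were chosen with earlier results of these data known. Some genes are not reported here.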

Additional observations from a re-analysis of the deposited data

Results flagged for a closer look

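The genes below had the largest limma differences between the H-Ras responses of the p53 wild-type and p53-deleted pairs, as the log2 response with intact p53 minus that with p53 deleted over 12 libraries, and are given as group means of normalized counts. The tables were normalized separately, so levels are compared only within a pair, and p53 status cannot be told apart from the pair of lines. With the response lower in the p53 wild-type pair: CAMK2B went from 375 to 9.999 with intact p53 and from 21.5 to 144 with p53 deleted (difference -7.37 ± 0.76, adjusted p = 6.7e-05). SYT12 went from 271 to 57.6 with intact p53 and from 18.6 to 564 with p53 deleted (difference -7.30 ± 0.85, adjusted p = 0.00016). COBL went from 605 to 6.76 with intact p53 and from 163 to 182 with p53 deleted (difference -6.52 ± 0.36, adjusted p = 5.5e-07). ALDH3A1 went from 242 to 37.3 with intact p53 and from 19.5 to 178 with p53 deleted (difference -5.85 ± 0.38, adjusted p = 1.9e-06). NGFR went from 259 to 0.636 with intact p53 and from 7.97 to 1.99 with p53 deleted (difference -5.82 ± 0.69, adjusted p = 0.00017). All 5 fell with intact p53, although SYT12 was no longer called within that pair without vector A, vector B, vector C or H-Ras B (adjusted p = 0.096, 0.1, 0.074 and 0.069, over a range of 0.00021 to 0.1 in the alternatives), while CAMK2B, SYT12, ALDH3A1 and, by a log2 ratio of 0.16, COBL had a higher mean with H-Ras in the p53-deleted pair.

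With the response higher in the p53 wild-type pair: SERPINB2 went from 25.4 to 56.3 with intact p53 and from 108 to 1.65 with p53 deleted (difference 6.60 ± 0.54, adjusted p = 1.2e-05). PI3 went from 127 to 319 with intact p53 and from 649 to 31.8 with p53 deleted (difference 5.70 ± 0.30, adjusted p = 4e-07). ALPP went from 14.96 to 0.319 with intact p53 and from 780.4 to 0.621 with p53 deleted (difference 5.48 ± 0.68, adjusted p = 0.00022). DPYSL3 went from 14.6 to 364 with intact p53 and from 541 to 365 with p53 deleted (difference 5.46 ± 0.76, adjusted p = 0.00054). UCA1 went from 116 to 5.54 with intact p53 and from 915 to 1.03 with p53 deleted (difference 5.14 ± 0.75, adjusted p = 0.00071). SERPINB2 was not called within the p53 wild-type pair with all 6 libraries (limma), and was called higher by limma-voom, in the fit to all 12 libraries, without vector B, and with both vector A and H-Ras C left out (adjusted p = 0.045, 0.02, 0.04 and 0.01), and ALPP and UCA1 fell there by less than their log2 ratios in the p53-deleted pair.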

How the results depend on the processing

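No paired analysis was possible because the deposited columns are group means, and the library values solved from them carry no replicate number. Leaving out 1 library at a time moved the 3315 called genes to between 1900 and 4428, those higher to between 890 and 2157 and those lower to between 1004 and 2271. The lowest count was without H-Ras B and the highest without H-Ras C. With both vector A and H-Ras C left out it was 7411, with 3658 higher and 3753 lower. That choice removed the libraries furthest from their own groups, which lowers the spread. Other causes were not tested. Equal library totals, filters, pseudocounts, no mean-variance trend, limma-voom and a fit to all 12 libraries kept the count within 1.5 times, as did the alternatives for the 2177 differences between backgrounds. No direction was reversed, and 268 of 306 named genes kept their call in every alternative. The spread of 3 libraries a group limits small changes.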
